A study of Mus musculus with 7 samples.

Results

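A set of 10 genes of the photoreceptor cilium was followed through postnatal maturation of the mouse retina by the level of H3K18La, histone H3 lactylated on a lysine of its tail, at their promoters and along their bodies. The genes, chosen by name, were Fam161a, Rpgrip1, Lca5, Cep290, Nphp4 and Spata7, whose products build the connecting cilium and axoneme, and Ift88, Ift140, Kif3a and Kif17, whose products carry cargo along it. They held 53 of the 108253 H3K18La peaks, which carried 25400 gene symbols in all. For each gene the promoter peak nearest an annotated transcription start is called its lead peak below. It is compared with the promoter peaks of the 9956 genes that had one at a protein-coding transcript. The lead peak of Nphp4, at a non-coding transcript, is not itself among these. Whole retinas of C57BL/6J mice were dissociated at postnatal day 4 (P4), P10 and P28, and H3K18La CUT&Tag, which cuts and tags chromatin where an antibody is bound, was run on 500000 cells per assay. The P4 group had 2 libraries, the P10 group 2 and the P28 group 3, with no treatment or mutation in any group. P28 replicate 1 was the single library of batch 2, so a batch difference within an age could be read at P28 alone. The labels do not say that replicates came from separate animals, so the p-values below measure the spread between these libraries, which may be technical.

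A photoreceptor's light-sensing outer segment is a modified cilium, joined to the inner segment by a narrow connecting cilium that corresponds to the transition zone of other cilia. Proteins made in the inner segment pass through this zone, and intraflagellar transport (IFT) trains, moved outward by kinesin-2 motors, carry cargo along the axoneme. In mouse, the last rods are born soon after birth and outer segments elongate in the weeks that follow, and loss of many of these proteins causes inherited retinal degeneration. Histone lactylation uses lactate as the source of the added group and marks active promoters and enhancers.

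The 250 bases upstream of the RefSeq start (GRCm38.p6) are shown for 6 of the 10 genes, to set genes with the largest changes at the start (Fam161a and Rpgrip1), the kinesin gene whose RefSeq-start peak was called higher at P28 (Kif3a), and genes whose start peak did not pass the test (Ift140, Ift88 and Spata7) side by side. Each reads 5′ to 3′ on the gene's strand, ends just before the start, and carries in capitals every match on either strand to GGGCGG (GC box), GTTGCC (RFX X-box half-site), TAATCC (CRX core) or TGCTGAC (NRL half-site).
Fam161a: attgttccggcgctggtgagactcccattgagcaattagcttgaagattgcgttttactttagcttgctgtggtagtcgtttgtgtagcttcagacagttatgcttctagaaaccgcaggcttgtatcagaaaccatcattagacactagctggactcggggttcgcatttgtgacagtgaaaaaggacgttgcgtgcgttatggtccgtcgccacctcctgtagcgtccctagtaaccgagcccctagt
Rpgrip1: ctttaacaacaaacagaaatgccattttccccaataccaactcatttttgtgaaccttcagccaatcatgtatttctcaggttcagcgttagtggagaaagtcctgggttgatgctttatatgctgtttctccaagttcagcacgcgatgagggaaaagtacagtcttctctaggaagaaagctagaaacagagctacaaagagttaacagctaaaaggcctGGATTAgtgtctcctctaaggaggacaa
Kif3a: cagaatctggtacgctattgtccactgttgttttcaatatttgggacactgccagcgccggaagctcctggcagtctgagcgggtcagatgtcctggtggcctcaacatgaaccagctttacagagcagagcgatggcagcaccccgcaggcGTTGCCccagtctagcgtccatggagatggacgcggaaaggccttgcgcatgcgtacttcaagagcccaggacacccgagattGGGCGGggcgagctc
Ift140: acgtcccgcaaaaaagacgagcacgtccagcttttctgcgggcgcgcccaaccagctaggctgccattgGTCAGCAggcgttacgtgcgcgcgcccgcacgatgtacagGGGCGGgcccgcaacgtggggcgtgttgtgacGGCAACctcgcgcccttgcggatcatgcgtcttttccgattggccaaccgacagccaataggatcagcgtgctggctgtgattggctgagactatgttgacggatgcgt
Ift88: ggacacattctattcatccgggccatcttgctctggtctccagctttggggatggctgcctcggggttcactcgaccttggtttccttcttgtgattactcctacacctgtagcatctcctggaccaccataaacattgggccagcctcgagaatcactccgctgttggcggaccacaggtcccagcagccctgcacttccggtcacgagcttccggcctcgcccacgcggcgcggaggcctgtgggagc
Spata7: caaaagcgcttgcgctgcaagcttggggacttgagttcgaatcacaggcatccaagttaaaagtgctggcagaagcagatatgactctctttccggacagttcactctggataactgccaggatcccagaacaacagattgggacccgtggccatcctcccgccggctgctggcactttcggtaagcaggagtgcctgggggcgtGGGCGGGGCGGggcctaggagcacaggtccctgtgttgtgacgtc
The windows lie at chr11:23008097-23008346 for Fam161a, chr14:52110653-52110902 for Rpgrip1, chr11:53567119-53567368 for Kif3a, chr17:25015836-25016085 for Ift140, chr14:57423821-57424070 for Ift88 and chr12:98627892-98628141 for Spata7, all on the plus strand. Predicted transcript models may begin further upstream, and the Kif3a window overlaps the divergent non-coding gene A430108G06Rik.

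Among the upstream windows of all 10 genes, which were all found in RefSeq, GGGCGG occurred in 4 (Cep290, Spata7, Ift140 and Kif3a), against 32.9% of 27025 promoter windows of the same length. In Spata7, both GGGCGG matches overlapped each other and began 45 and 40 bases before the start. GTTGCC occurred in 3 windows (Ift140, Kif3a and Kif17), against 10.5% of all windows. TAATCC occurred in Rpgrip1 alone, 28 bases before the start on the opposite strand, against 6.38% of windows, and TGCTGAC in Ift140 alone, against 3.72%. None of the 4 strings was found in the windows of Fam161a, Ift88, Lca5 and Nphp4. The GC content of the 10 windows had a median of 59.0%, from 41.6% in Rpgrip1 to 66.4% in Kif17, against a median of 52.0% over all windows. The ratio of observed to expected CpG had a median of 0.691 in the 10 windows and 0.378 in all, and spanned 0.203 in Nphp4 to 1.17 in Ift140. Fam161a and Rpgrip1, whose lead peaks were the strongest at P28, differed in this ratio, at 0.928 and 0.277. A match is a description of letters in a window and no test was made of it.

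The libraries held 199970 to 660740 reads in peaks at P4 and P10 and 1615969 to 8274373 at P28, so low peaks were read far less precisely at the younger ages. A lead peak held 2 to 15 reads over both P4 libraries, 2 to 27 over both P10 libraries and 68 to 548 over the 3 P28 libraries, and in 5 of the 10 genes no P4 library had more than 3 reads in it. Intervals given with ratios of pooled reads are exact 95% intervals and cover counting error only. The share of the authors' normalized library size that fell in peaks was 16.3% and 17.6% at P4, 36.1% and 52.1% at P10, and 42.4% to 57.1% at P28. Over all peaks, the median of the change between P4 and P28 was 0.68 with the deposited scaling and −0.29 when libraries were scaled to their signal in peaks, with 20488 peaks called higher and 4553 lower in the first and 7759 higher and 16246 lower in the second.

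All 10 lead peaks carried more H3K18La in every P28 library than in either P4 library, as did 79.3% of all 9956 promoter peaks. Peaks were called within each age and then merged, so a peak with few reads at P4 may have entered through a later age. Such entry favours a rise from P4, so the direction of change at these peaks is not independent support. The peaks of Fam161a, Rpgrip1, Lca5, Nphp4, Kif17 and Kif3a, 6 of 10, passed the test as higher at P28 (limma on log2(RPKM + 1), Benjamini-Hochberg adjusted p under 0.01 over all peaks), where 32.8% of all promoter peaks did. The other 4, Cep290, Spata7, Ift88 and Ift140, had an unadjusted p under 0.05 only, a threshold that 51.8% of all peaks passed, and none was called lower. The median change of the 10 was 2.04 on the log2(RPKM + 1) scale, from 0.93 to 3.29, against 1.34 over all promoter peaks, and this scale understates changes of low peaks. With libraries scaled to their signal in peaks the medians were 1.00 and 0.30, Fam161a, Kif17 and Lca5 were called, against 6.98% of promoter peaks, and Spata7 and Ift140 went to −0.080 and −0.26. The members' median lay above that of all promoter peaks by 0.70 with the deposited scaling, 0.71 with this one, 0.57 without P4 replicate 1 and 0.33 with reads thinned to the smallest library. Without P4 replicate 1 the calls were Fam161a, Kif17 and Nphp4 (9.01% of promoter peaks), without P4 replicate 2 Fam161a, Kif17 and Lca5 (10.1%), and with thinned reads Fam161a and Kif17 (4.61%). In bulk retina, fewer cells of a type and less of the mark per cell cannot be told apart.

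Markers of retinal cell types were set beside these genes, of which 4 of 10 were called higher at P10 and 6 at P28. The promoter peaks of the rod markers Nrl, Crx, Gnat1, Pde6b, Sag, Rcvrn and Nr2e3, all 7 of the list, were called higher at P10 and at P28. Of all promoter peaks, 11.1% and 32.8% were. The 7 peaks summed to 21.8 and 24.9 RPKM at P4, 181 and 186 at P10, and 127 to 182 at P28. The sums that follow are likewise over promoter peaks. The 4 bipolar markers with a promoter peak, of 5, summed to 2.18 to 5.92, 2.47 to 4.75 and 11.0 to 14.8 RPKM at P4, P10 and P28 and none was called, while an intronic peak of Prkca was called higher at P28. The 5 Mueller glia markers summed to 8.26 to 9.89, 23.8 to 24.6 and 23.6 to 26.0 RPKM with 1 called at P28. The 3 progenitor markers with a promoter peak, of 5, summed to 3.27 to 8.37, 10.7 to 16.2 and 16.2 to 18.6 RPKM with 1 called, Hes5 (1.67 and 0.879 RPKM at P4, 12.0 to 14.9 at P28), whereas Sfrp2 stood at 1.03 and 6.75 RPKM at P4 and 0.594 to 1.17 at P28, and an exonic peak of Ccnd1 was called higher at P28. The 2 ganglion cell markers with a promoter peak, of 4, summed to 5.88 to 7.82, 3.48 to 5.63 and 1.47 to 4.10 RPKM and the 2 amacrine markers, of 4, to 3.29 to 5.09, 2.33 to 9.89 and 5.26 to 8.85 RPKM, with none called, and the other 2 of each list, which had peaks elsewhere, were not called at P28 either, although the intronic peak of Pax6 was called lower at P10 (−2.29; adjusted p = 0.00817). The 1 pigment epithelium marker with a promoter peak, of 5, was at 1.42 RPKM or less in every library and was called lower at P10. Of 3 others with a peak elsewhere, Rpe65 (1.44 and 1.89 RPKM at P4, at most 0.195 later) and Tyr (2.66 and 1.75 RPKM at P4, at most 0.337 later) were called lower at P28, as were 4.21% of all peaks. The Rpe65 call rests on 1 read in each P4 library, and that of Tyr on 6 and 3 reads. The third, Ttr, with an exonic peak, was not called and stood at 2.41 and 2.37 RPKM at P4 and 3.13, 7.73 and 8.24 at P28. The 2 blood and vessel markers with a promoter peak, of 5, summed to 4.71 to 8.36 RPKM at P4 and 1.22 to 3.46 later, and Pecam1, with an intronic peak only, went from 0 RPKM at P4 to 1.61 to 3.88 at P28, with none called. The part of these cell types in the results for the ciliary genes was not tested.

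**Figure D1:**
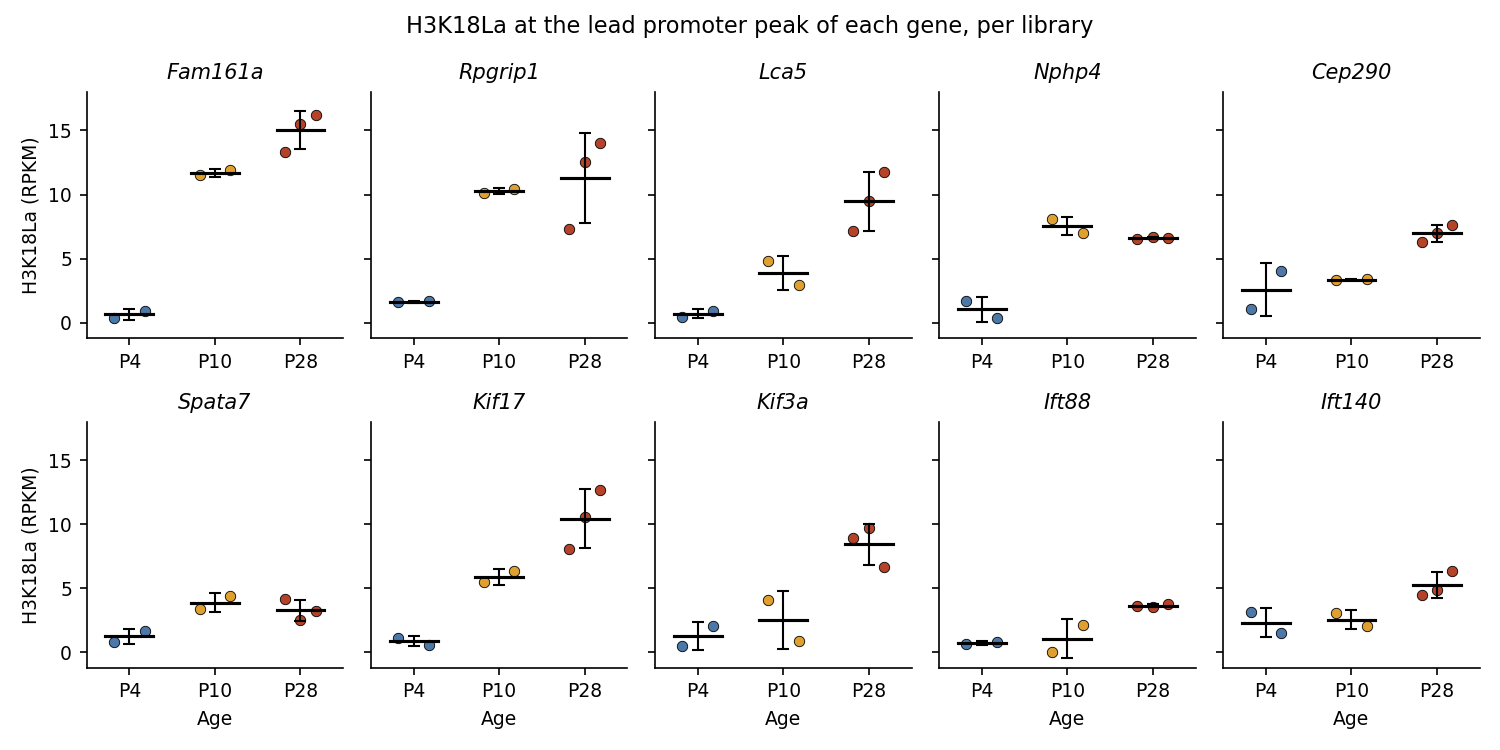
H3K18La in RPKM (vertical axis) at the lead peak of each gene at P4, P10 and P28; points are libraries (2, 2 and 3), the line is their mean and the bar is 1 SD. All P28 points lie above all P4 points in each of the 10 genes, by the widest margin in Fam161a, although Spata7 and Ift140 fitted below 0 from P4 to P28 when libraries were scaled to their signal in peaks.

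Fam161a encodes a microtubule-binding protein of the connecting cilium. Its lead peak, chr11:23007425-23008681, covers the RefSeq start and the upstream window printed above. It held 0.361 and 0.949 RPKM in the P4 libraries, 11.5 and 11.9 at P10, and 13.4, 15.5 and 16.2 at P28. The 2 youngest libraries were thus low and all 5 later ones high, with no overlap between P4 and either later age. The 3 reads at P4 and 499 at P28 gave a ratio of 24.9 per normalized library size (8.48 to 121), and the fitted change was 3.29 ± 0.30 (SE; adjusted p = 0.000137). From P4 to P10 it was already 2.96 (95% interval 2.23 to 3.70; adjusted p = 0.000583). The call at P28 held under all 17 alternative settings tried and the call at P10 under 16 of them, thinning of reads being the exception.

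Rpgrip1 encodes the scaffold that holds RPGR at the connecting cilium. Its lead peak, chr14:52110425-52111854, also covers the RefSeq start, and held 1.59 and 1.67 RPKM at P4, 10.1 and 10.5 at P10, and 7.34, 12.5 and 14.0 at P28. P4 lay below both later ages, and the P10 values fell inside the P28 range. The fitted change was 2.18 ± 0.33 to P28 (adjusted p = 0.0010) and 2.10 (1.28 to 2.92; adjusted p = 0.00283) to P10. The pooled reads, 9 at P4 and 447 at P28, differed 7.44-fold (3.89 to 16.4). The P28 call held under 13 of 17 alternatives, and was lost without either P4 library (adjusted p = 0.0161 and 0.0154).

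Lca5 encodes lebercilin, a ciliary axoneme protein that binds IFT proteins. Its lead peak, chr9:83433847-83435713, lies 6.35 kb inside the gene at the start of another annotated transcript. It held 0.487 and 0.959 RPKM at P4, 4.83 and 2.96 at P10, and 7.17, 9.51 and 11.7 at P28. The 3 ages did not overlap. The fitted change was 2.59 ± 0.37 to P28 (adjusted p = 0.000739) and 1.49 (0.58 to 2.41; adjusted p = 0.0185) to P10, which was not a call. At the RefSeq start, the peak chr9:83440436-83441496 held 2.57 and 0.562 RPKM at P4, 3.40 and 3.72 at P10, and 6.18, 8.28 and 11.1 at P28, a change of 1.98 to P28 (1.02 to 2.93; adjusted p = 0.0055). That call held under 6 of 17 alternatives.

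Nphp4 encodes nephrocystin-4, a transition zone protein. Its lead peak, chr4:152487352-152488919, lies 11.4 kb inside the gene at the start of a non-coding transcript. It held 1.74 and 0.381 RPKM at P4, 8.06 and 7.04 at P10, and 6.53, 6.66 and 6.61 at P28. The P10 libraries, with 7 and 14 reads, were the highest, and all P28 libraries lay below them. The fitted change was 1.97 ± 0.37 to P28 (adjusted p = 0.00283) and 2.13 (1.22 to 3.05; adjusted p = 0.00414) to P10. The P28 call held under 7 of 17 alternatives, and was lost without P4 replicate 2 (adjusted p = 0.0181) or any 1 P28 library (0.0139, 0.0181 and 0.0157 without replicates 1, 2 and 3, the first being the fit within batch 1). The peak over the RefSeq start, chr4:152476503-152478862, carries the symbol of the neighbouring gene Kcnab2 and held 0.963 and 3.54 RPKM at P4, 7.65 and 7.35 at P10, and 9.45, 10.5 and 13.2 at P28, a change of 2.00 to P28 (1.14 to 2.87; adjusted p = 0.00307).

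Cep290 encodes a large transition zone protein that links microtubules to the ciliary membrane. Its lead peak, chr10:100486533-100488160, also holds the start of the divergent gene Tmtc3, so its signal cannot be assigned to either gene. It held 1.12 and 4.03 RPKM at P4, 3.33 and 3.39 at P10, and 6.28, 7.02 and 7.64 at P28. The P4 libraries spanned the P10 values, and P28 lay above all of these. The fitted change was 1.29 ± 0.41 to P28 (0.37 to 2.20; adjusted p = 0.0299) and 0.42 (−0.58 to 1.42; adjusted p = 0.514) to P10, and neither was a call. The change to P28 was 0.66 without P4 replicate 1 and 1.91 without P4 replicate 2. It was called with voom (adjusted p = 0.00269) and with array weights in limma (adjusted p = 0.00361), where 52.6% and 56.6% of promoter peaks were called higher.

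Spata7 encodes a partner of RPGR and RPGRIP1 at the connecting cilium. Its lead peak, chr12:98627930-98629005, held 0.845 and 1.66 RPKM at P4, 3.36 and 4.40 at P10, and 4.15, 2.51 and 3.21 at P28. P4 was lowest, and the later ages overlapped. Its change of 0.93 to P28 (0.04 to 1.83; adjusted p = 0.0849) was the smallest of the 10 genes, and that to P10 was 1.13 (0.15 to 2.11; adjusted p = 0.0723). The 5 reads at P4 and 81 at P28 differed 2.43-fold (0.999 to 7.68).

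Among the transport genes, Kif17 encodes the homodimeric kinesin-2 motor. Its lead peak, chr4:138249323-138251307, lies 11.9 kb upstream of the RefSeq start and covers annotated starts of both a protein-coding Kif17 transcript and the neighbouring gene Sh2d5, between which its signal cannot be divided. It held 1.14 and 0.601 RPKM at P4, 5.46 and 6.35 at P10, and 8.06, 10.6 and 12.7 at P28. The 3 ages did not overlap, and the fitted change was 2.61 ± 0.34 to P28 (adjusted p = 0.000459) and 1.89 (1.06 to 2.73; adjusted p = 0.0045) to P10. The peak over the RefSeq start itself, chr4:138261862-138263142, held 0.709 and 1.40 RPKM at P4, 1.41 and 6.15 at P10, and 6.35, 4.46 and 5.12 at P28. It was below the lead peak in every P28 library, and at P4 it was below in replicate 1 and above in replicate 2. Its change of 1.63 to P28 (0.53 to 2.73; adjusted p = 0.0244) was not a call.

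Kif3a encodes a motor subunit of heterotrimeric kinesin-2. Its lead peak, chr11:53566823-53567703, is its only peak, and shares its start region with A430108G06Rik. It held 0.516 and 2.03 RPKM at P4, 4.10 and 0.895 at P10, and 8.93, 9.70 and 6.67 at P28. P4 and P10 overlapped, with 4 and 3 reads in all, and P28 lay above both. The fitted change was 2.12 ± 0.50 to P28 (adjusted p = 0.00812) and 0.54 (−0.69 to 1.76; adjusted p = 0.491) to P10. The P28 call held under 6 of 17 alternatives, and was lost without either P4 library (adjusted p = 0.0984 and 0.0296) or any 1 P28 library (0.0382, 0.0425 and 0.0265 without replicates 1, 2 and 3, the first being the fit within batch 1).

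Ift88 encodes a core subunit of the IFT-B complex. Its lead peak, chr14:57423651-57424380, was the narrowest of the 10 and held 0.622 and 0.817 RPKM at P4, 0 and 2.16 at P10, and 3.59, 3.54 and 3.79 at P28. P28 lay above the younger ages, which overlapped and had 2 reads each. The ratio of pooled reads from P4 to P28 was 5.09 (1.36 to 42.9), and the fitted change 1.43 ± 0.53 (0.25 to 2.62; adjusted p = 0.0527) was not a call. With array weights in limma it was 1.41 and called (adjusted p = 0.00626), where 56.6% of promoter peaks were called higher. Ift140 encodes a subunit of the IFT-A complex, which serves the return of trains to the cell body. Its lead peak, chr17:25015748-25016913, also holds the start of Cramp1l, and held 3.12 and 1.54 RPKM at P4, 3.10 and 2.03 at P10, and 4.50, 4.90 and 6.37 at P28. P4 and P10 overlapped and P28 lay above them, with a fitted change of 0.94 ± 0.39 (0.08 to 1.81; adjusted p = 0.0744) to P28 and 0.12 (−0.82 to 1.07; adjusted p = 0.856) to P10.

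From P4 to P10, 4 lead peaks were called higher, those of Fam161a, Rpgrip1, Nphp4 and Kif17, where 11.1% of promoter peaks were. In 6 of the 10 genes both P10 libraries lay above both P4 libraries, against 45.3% of promoter peaks. The median change was 1.31, against 0.54 over promoter peaks, and with libraries scaled to their signal in peaks 0.51 against −0.33. Without P10 replicate 1 it was 1.25 against 0.77 and without P10 replicate 2 1.51 against 0.43. The P4 libraries are shared with the comparison of P28. The 6 connecting cilium genes had a median change of 1.80 to P10 and 2.07 to P28, with 3 and 4 called, against 11.1% and 32.8% of promoter peaks. The 4 transport genes had medians of 0.33 and 1.78, with 1 and 2 called, against the same 2 shares. The call at P10 was that of the Kif17 peak shared with Sh2d5. Whether both groups of genes differ in timing was not tested. Without P4 replicate 1 the P10 calls were Fam161a and Nphp4 (2.41% of promoter peaks), and without P4 replicate 2 Fam161a alone (2.68%). Without P28 replicate 2 or replicate 3, which enter through the shared estimate of the spread, they were Fam161a and Rpgrip1 (4.27% and 5.83% of promoter peaks). With libraries scaled to their signal in peaks Fam161a alone was called (2.26%), and Cep290, Ift88, Ift140 and Kif3a went to −0.58, −0.71, −0.88 and −0.22.

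From P10 to P28, no lead peak was called by limma, and 0.00185% of all peaks were called. At an unadjusted p under 0.05 there were 3 of the 10, against 32.5% of all peaks, and voom on the recovered reads called none. In 7 genes all P28 libraries lay above both P10 libraries, against 55.0% of promoter peaks, and the median change of 0.76 was close to the 0.75 of all promoter peaks. Kif3a had the highest change, 1.59 (adjusted p = 0.0612), and Spata7 and Nphp4 were fitted at −0.19 and −0.17. Without P10 replicate 2, Ift88 was called with a change of 2.21 (adjusted p = 0.00382), its other P10 library having no read in the peak, and 20.3% of promoter peaks were called higher in that fit. A test over the 3 ages together called 5 of the 10 genes, against 28.8% of promoter peaks, and the count was 1 without either P4 library (2.43% and 2.19% of promoter peaks) and 2 without P28 replicate 2 (7.86%).

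**Figure D2:**
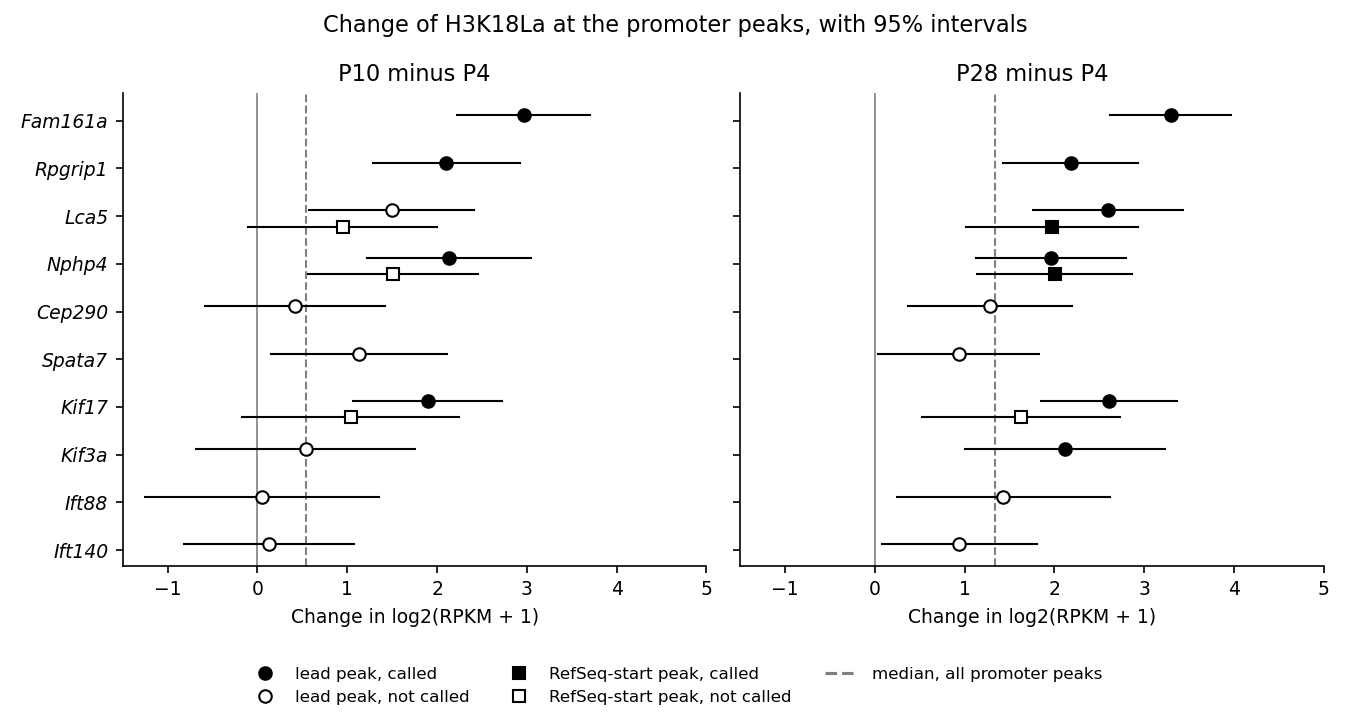
Change in H3K18La on the log2(RPKM + 1) scale (horizontal axis) from P4 to P10 and to P28, with 95% intervals, for the lead peaks (circles) and, for Lca5, Nphp4 and Kif17, the peak over the RefSeq start (squares); the dashed line is the median of all promoter peaks and filled symbols were called. At P28, 7 of the 10 lead peaks lie right of that median, led by Fam161a at 3.29 (with libraries scaled to their signal in peaks, Spata7 and Ift140 fall below 0).

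The lead peaks of Kif17, Nphp4 and Lca5 were not over the RefSeq start, so the counts were also made on the peak over that start for every gene, a choice made after seeing the data. From P4 to P28, 5 of the 10 genes were then called higher, where 33.7% of all peaks over a RefSeq start were, and 2 from P4 to P10, where 12.0% were. The medians were 1.80 and 0.99.

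At P28 the level per length at the lead peak was highest in Fam161a, 15.0 ± 1.49 RPKM (SD, n = 3). Rpgrip1 (11.3 ± 3.50), Kif17 (10.4 ± 2.32), Lca5 (9.48 ± 2.29), Kif3a (8.43 ± 1.58), Cep290 (6.98 ± 0.68) and Nphp4 (6.60 ± 0.07) followed, each overlapping its neighbours in the range of its libraries. Ift140 (5.26 ± 0.98) lay below Nphp4 with no overlap, and Ift88 (3.64 ± 0.13) lay below Ift140 with no overlap. Spata7 (3.29 ± 0.82) was lowest and overlapped Ift88. Lead peaks of the 10 genes had a median width of 1344 bases, against 1151 for all promoter peaks.

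The rank of a lead peak among the promoter peaks of its own library does not depend on how libraries are scaled. The median percentile of the 10 genes was 31.7 and 38.1 in the P4 libraries, 71.9 and 58.2 at P10, and 70.1, 74.8 and 62.3 at P28. The P4 libraries were thus lower than all 5 later ones. Fam161a went from a mean percentile of 19.8 at P4 to 94.1 at P10 and 92.5 at P28, and Rpgrip1 from 51.5 to 92.0 and 83.4. Kif17 (27.3, 78.7 and 82.2) and Lca5 (22.1, 60.6 and 78.5) had their highest mean percentile at P28, whereas Nphp4 (34.0, 85.4 and 64.3) and Spata7 (39.0, 62.9 and 29.9) had it at P10. Kif3a stood at 16.3 and 60.8 in the P4 libraries, 69.1 and 13.8 at P10, and 81.1, 81.5 and 59.1 at P28, so its P10 libraries spanned most of the range and overlapped P28. Ift88 had mean percentiles of 22.1, 24.1 and 34.9. Those of Cep290 (63.4, 57.0 and 66.9) and Ift140 (65.4, 45.6 and 52.6) rest on P4 libraries far apart, at 36.4 and 90.4 in Cep290 and 83.5 and 47.4 in Ift140. These ranks were compared with no test.

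**Figure D3:**
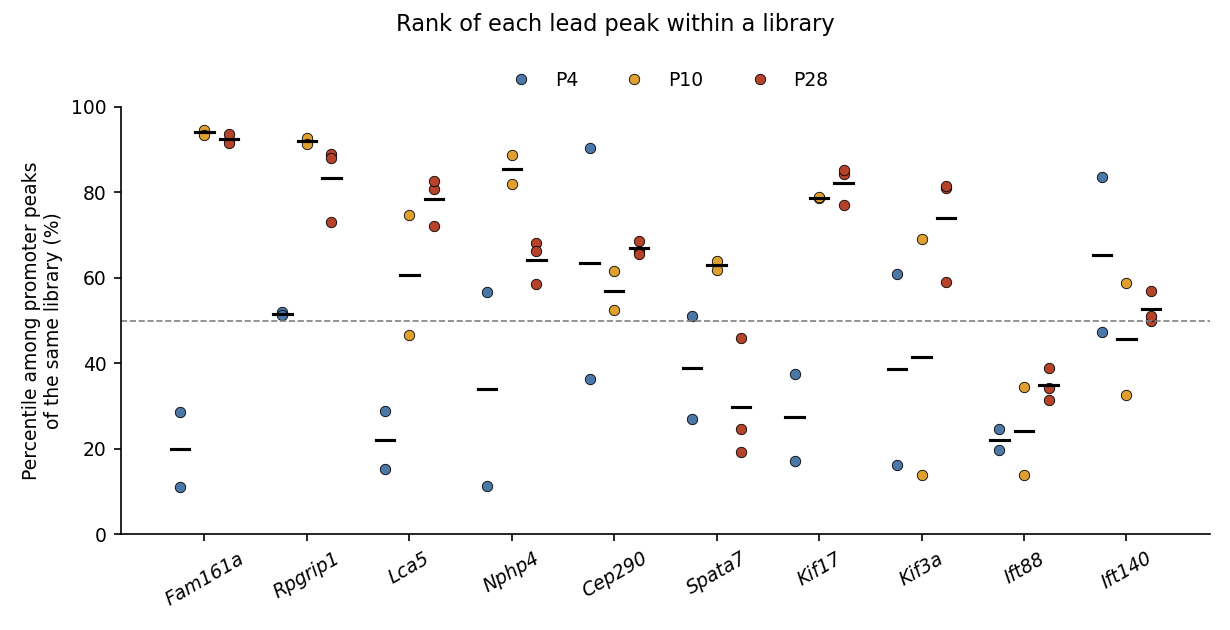
Percentile of each gene's lead peak among the promoter peaks of 9956 genes in the same library (vertical axis, %), with 1 point per library coloured by age, a bar at the mean of an age and a dashed line at the middle of the scale. Fam161a had a mean of 19.8 at P4 and 94.1 at P10, and Rpgrip1 means of 51.5 and 92.0.

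Beyond the lead peaks, the 10 genes had 43 further peaks, and of all 53 peaks 25 were intronic, 13 at promoters, 7 exonic, 5 distal and 3 in a 3′ UTR. From P4 to P28, 15 of the 53 were called higher and 1 lower, with 23.1% of all peaks called. The median change was 1.47, against 0.68 over all peaks. With libraries scaled to their signal in peaks the split was 9 higher and 6 lower, against 7.17% and 15.0% of all peaks, and with quantile normalization 12 and 6, against 12.6% and 13.5%. Outside promoters 8 of 40 were higher, against 16.6% of all such peaks, and the 1 lower peak compares with 4.21% of all peaks. From P4 to P10, 12 were called higher and 2 lower, with 18.7% of all peaks called, and with scaling to signal in peaks 4 and 4, against 4.35% and 15.8%. With quantile normalization the P10 split was 5 and 2, against 4.08% and 2.64% of all peaks.

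Along Fam161a, 4 peaks covered 5.53 kb from the promoter into the gene and all 4 were called higher at P10 and at P28, where 11.4% and 18.9% of all peaks were. The intronic peak chr11:23009242-23010074 held 0.545 and 0.716 RPKM at P4, 13.0 and 12.3 at P10, and 16.1, 16.7 and 20.5 at P28, a change of 3.52 to P28. The next, chr11:23010719-23011101, held 2.37 and 1.56, then 23.6 and 14.4, then 28.1, 22.8 and 31.1 RPKM, a change of 3.26. The last, chr11:23011980-23012949, held 0.468 and 0 RPKM at P4, 26.1 and 13.8 at P10, and 15.1, 24.7 and 23.5 at P28. In all 4 the P4 libraries were the lowest, and the last had the largest change of the 53 peaks, 4.16 to P28 and 4.05 to P10, on 1 read at P4. The ratio of its pooled reads to P28 was 86.6 (15.5 to 3427).

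Further into Fam161a, the peaks 16.1 and 20.2 kb from the start were not called at either age, at 1.59 (adjusted p = 0.0267) and −0.95 (adjusted p = 0.0708) to P28. Lca5 had 13 peaks, of which 5 were called higher at P28, where 18.9% of all peaks were. The strongest at P28 was an intronic peak 12.9 kb from the RefSeq start, chr9:83427708-83428691, with 4.62 and 5.46 RPKM at P4, 38.5 in both P10 libraries, and 26.7, 30.9 and 36.9 at P28. P4 was again lowest and P10 highest. With 19 reads at P4, 69 at P10 and 805 at P28 it was the best covered peak of the 10 genes, and its changes were 2.42 to P28 (adjusted p = 0.000186) and 2.71 to P10 (adjusted p = 0.000441). Another intronic peak, chr9:83392274-83393282, was called at both ages (2.81 and 2.22, held under 11 and 6 of 17 alternatives), and that at chr9:83420012-83420329 at neither (2.25 to P28, adjusted p = 0.0125).

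In Cep290, the exonic peak chr10:100500819-100502860, 14.3 kb inside the gene, had no read in either P4 library, 7.07 and 1.93 RPKM at P10, and 5.91, 9.57 and 11.8 at P28. The P4 floor of 3 reads per library puts the P28 mean at least 11.8-fold higher and the P10 mean at least 5.83-fold higher. The P10 limit rests on 2 libraries far apart (7.07 and 1.93 RPKM) and would differ with either alone. Both changes were called by limma (adjusted p = 0.000879 and 0.00962), in 14 and 5 of 17 alternatives. The other peak in the body of Cep290, the intronic chr10:100520328-100520842, was not called. It held 0.882 and 1.16 RPKM at P4, 0 and 3.06 at P10, and 3.06, 3.22 and 3.35 at P28, a change of 1.06 to P28. So 1 of the 3 peaks of Cep290 was called, and neither that at its shared start nor the intronic peak was. Of all peaks, 11.4% were called higher at P10 and 18.9% at P28. In Spata7, the intronic peak chr12:98646828-98647356 held 0.859 and 0 RPKM at P4, 6.83 and 5.96 at P10, and 1.98, 3.14 and 4.24 at P28, highest at P10, and was called at P10 (2.44; adjusted p = 0.00494, held under 7 of 17 alternatives) but not at P28 (1.56; adjusted p = 0.0197). The intron of Spata7 at chr12:98667968-98668794 changed by 1.71 to P28 with an adjusted p of 0.047, which was not a call. In Kif17, the intronic peak chr4:138282284-138283376, 20.6 kb inside the gene, held 0.416 and 0 RPKM at P4, 4.96 and 4.33 at P10, and 4.32, 4.67 and 3.79 at P28. It was called at P28 (2.14; adjusted p = 0.00225) and at P10 (2.24; adjusted p = 0.00401), with 1 read at P4, and these calls held under 9 and 7 of 17 alternatives.

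The other promoter peak of Rpgrip1, chr14:52118657-52119640, held 1.39 and 0 RPKM at P4, 1.83 and 0.801 at P10, and 2.67, 4.0 and 5.44 at P28. The exonic peak of Ift88, chr14:57509263-57510808, held 0.294 and 0 RPKM at P4, 1.17 and 0 at P10, and 2.38, 2.78 and 3.35 at P28. The intronic peak of Ift140, chr17:25021809-25023227, held 0 and 0.421, then 0 and 1.11, then 2.77, 2.08 and 3.77 RPKM. In all 3 the P28 libraries lay above all earlier ones, as in 22.6% of all peaks, and none was called (changes of 1.67, 1.75 and 1.68 to P28; adjusted p = 0.0285, 0.0113 and 0.0158).

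Nphp4 had 17 peaks, the most of the 10 genes, of which 1 was called higher and 1 lower at P28, where 18.9% and 4.21% of all peaks were. In 7 of the 17, lying 31.5 to 85.9 kb from the RefSeq start, every P28 library was below every P4 library, on 5 to 11 reads at P4, against 20.7% of all peaks. Of these the 3′ UTR peak chr4:152562277-152562904 passed the test as lower, with 2.89 and 3.80 RPKM at P4, 0 in both P10 libraries, and 0, 0.489 and 0.825 at P28. Its changes were −1.63 to P28 (adjusted p = 0.00513) and −2.11 to P10 (adjusted p = 0.00324). The call at P28 was lost when any 1 P4 or P28 library was left out (adjusted p = 0.0103 to 0.0344), with a pseudocount of 0.1 (0.0543) and with thinned reads (0.331). That at P10 was lost without either P4 library (0.0149 and 0.0205) or P28 replicate 2 (0.0115), with a pseudocount of 0.1 (0.0138), voom (0.0728), thinned reads (0.451) and array weights (0.0249), and the filter on low values removed the peak. The intronic peak chr4:152507871-152508494 held 2.18 and 2.87 RPKM at P4, 0 in both P10 libraries, and 0.841, 0.689 and 1.38 at P28, and was lower at P10 (−1.81; adjusted p = 0.00623) but not at P28 (−0.85; adjusted p = 0.0764). The call at P10 held under 5 of 17 alternatives. The median change of the 17 peaks to P28 was 0.07.

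**Figure D4:**
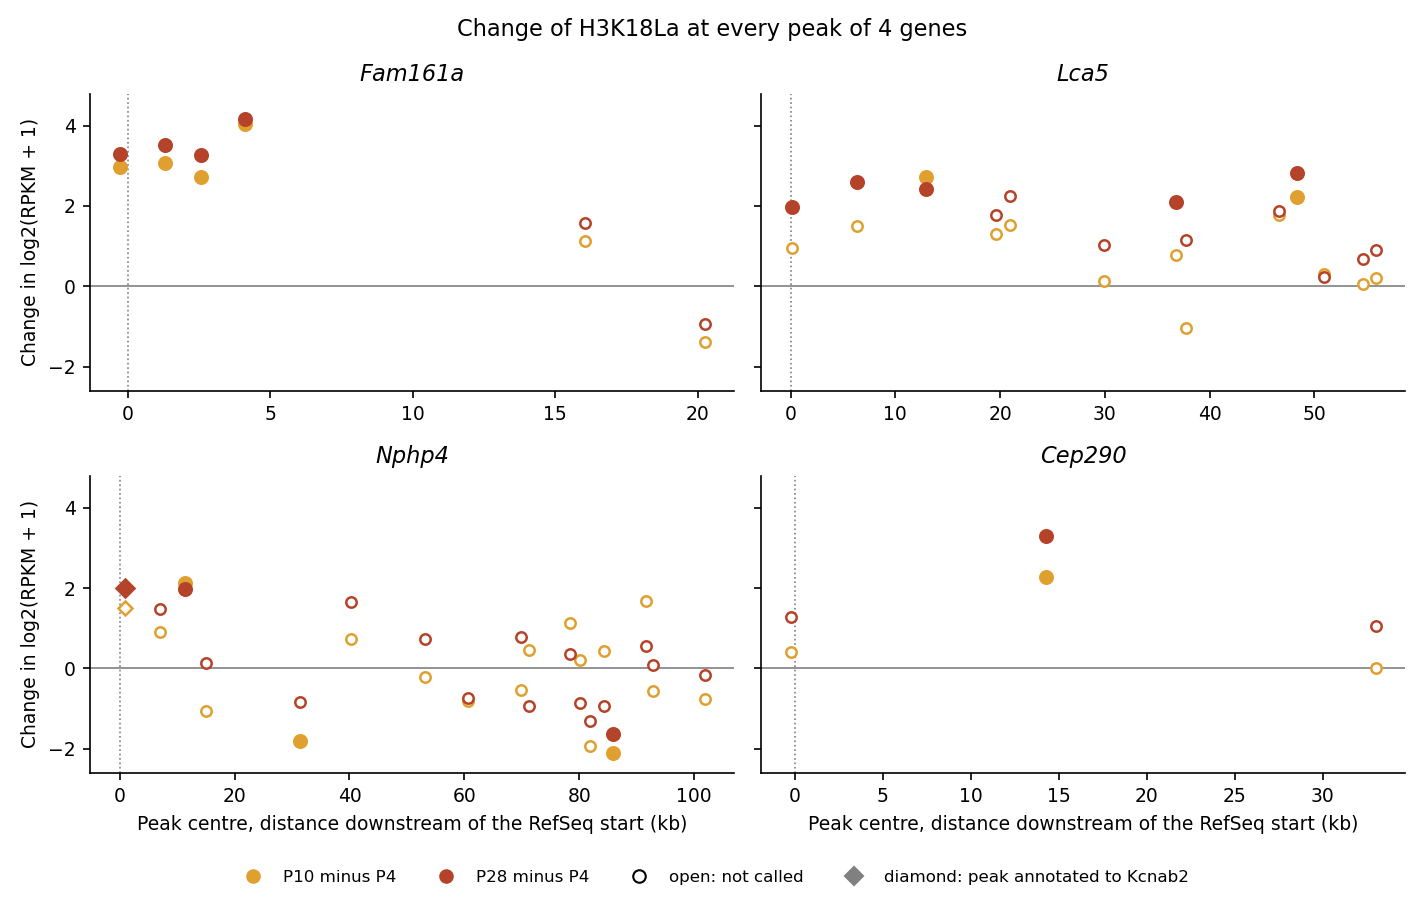
Change in H3K18La on the log2(RPKM + 1) scale (vertical axis) from P4 to P10 and from P4 to P28 at every peak of Fam161a, Lca5, Nphp4 and Cep290, by distance from the RefSeq start in kb (horizontal axis), filled where called, with the peak annotated to Kcnab2 as a diamond. Peaks near the start of Fam161a reach 4.16 at P28, and the peak called lower at both ages, a call lost at either age without either P4 library, lies 85.9 kb into Nphp4.

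Of 62 other ciliary genes in 5 lists, 54 had a promoter peak. No peak carried the symbols Wdr35, Cluap1, Rp2a and Cfap418, and Ift43, Hspb11, Ttc30a1 and Topors had peaks but none at a promoter. From P4 to P28, 15 of the 54 were called higher, none lower and 39 not called, against 32.8% of promoter peaks called higher, with a median change of 1.42, whereas promoter peaks had a median of 1.34. To P10 9 of the 54 were called higher, against 11.1% of promoter peaks, with a median of 0.86 against 0.54. By list, the calls at P28 were 1 of 4 IFT-A genes, 2 of 13 IFT-B genes, 1 of 8 motor genes, 6 of 19 transition zone genes and 5 of 10 photoreceptor axoneme and connecting cilium genes, with medians of 1.21, 1.24, 1.22, 1.44 and 1.55. At P10 the calls were 1, 1, 0, 3 and 4, to be read against the same 11.1%, with medians of 0.40, 0.61, 0.00, 1.11 and 1.37. The largest changes to P28 were 3.27 in Tmem107 (adjusted p = 0.000396), a transition zone membrane protein, 2.84 in Kif3b (adjusted p = 0.000647), the partner of Kif3a in kinesin-2, and 2.82 in Ift81 (adjusted p = 0.000595), a tubulin-binding IFT-B subunit. The smallest were 0.04 in Ttc26 and 0.15 in Ttc30b, both of IFT-B.

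**Figure D5:**
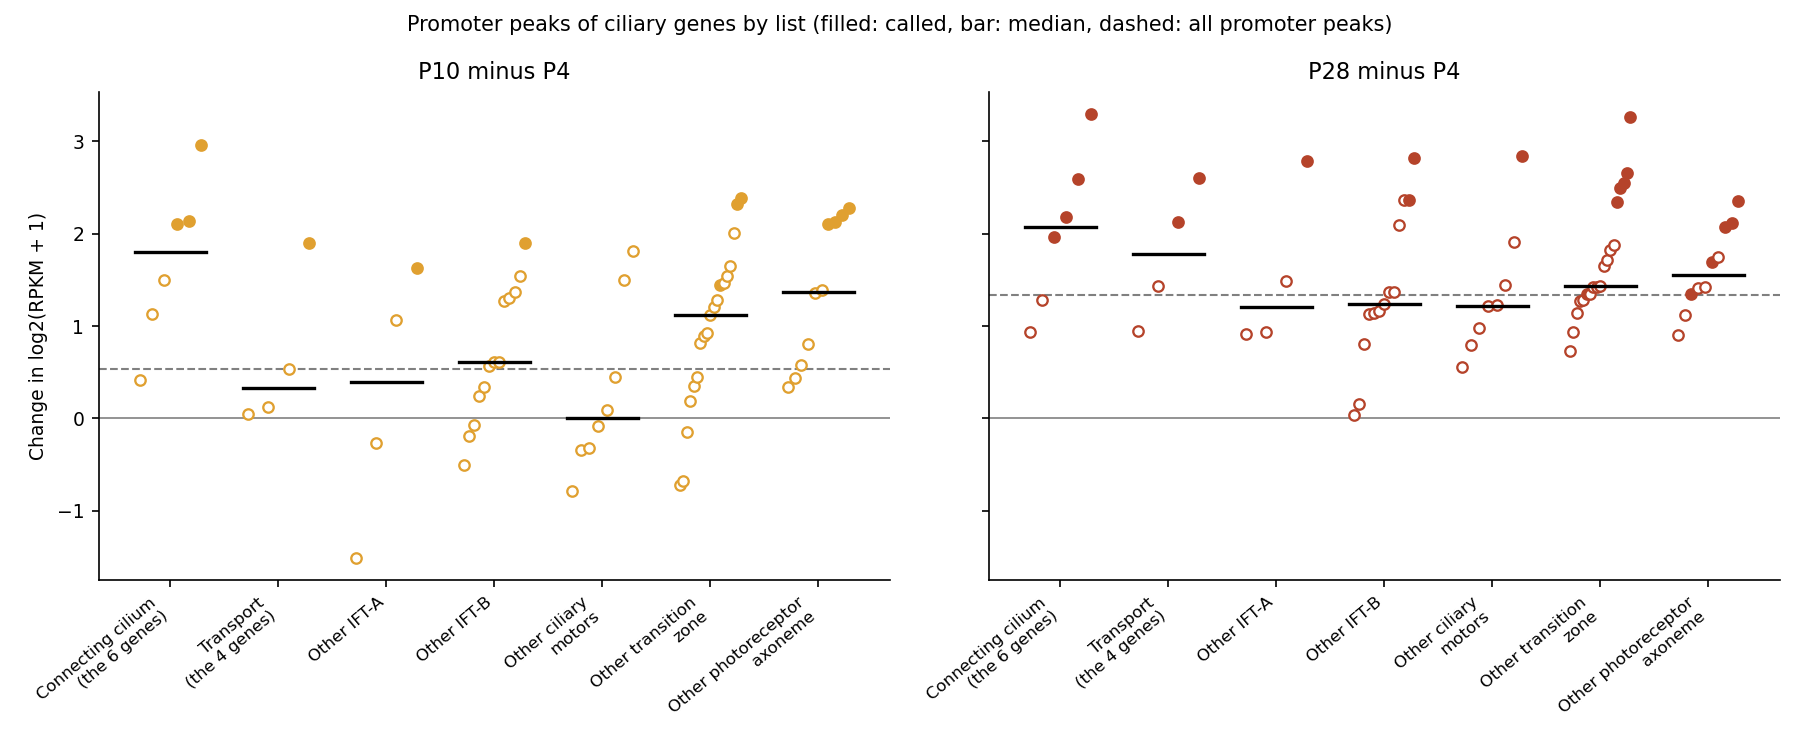
Change in H3K18La on the log2(RPKM + 1) scale (vertical axis) from P4 to P10 and from P4 to P28 at the promoter peak of each gene of both groups described above and of the 5 other ciliary lists, filled where called, with each list's median as a bar and the median of all promoter peaks as a dashed line. The 6 connecting cilium genes have a median of 2.07 at P28 and the 54 other ciliary genes 1.42.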

How the data were processed

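H3K18La CUT&Tag (antibody PTM1406) was run on dissociated whole retina. Per the study's methods, reads were mapped to GRCm38 with nf-core/cutandrun, MACS peaks with −log10 q above 6 in at least 2 replicates were kept and blacklisted regions removed, peaks were merged over the ages and annotated with ChIPseeker 1.34.1 (promoter, −1000 to 500 bases from a start), and csaw normalized libraries on windows of 10000 bases. The study describes 3 replicates per age, whereas the files used here hold 2 each for P4 and P10, so other libraries may have entered the choice of peaks. The labels name pA-MNase as the enzyme and the study's methods pA-Tn5. The authors deposited these peaks as RPKM values per library, divided by peak width and normalized library size, and every value was a whole number of reads within 0.001 reads (100.0%). A deposited table of the authors' own comparisons by edgeR 3.40.2 (fold changes, p-values and means per age) was not used.

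The 10 genes and all gene lists were chosen with earlier results of these data known. Lead peaks were taken by promoter annotation, then the smallest distance to a start, then a protein-coding transcript, then the peak centre nearest the transcript start. All 10 lead peaks are named, with up to 3 further peaks per gene, those highest at P28, and of the other ciliary genes the 3 largest and 2 smallest changes; other Nphp4 peaks were chosen after their values were seen. For all 108253 peaks log2(RPKM + 1) was fitted on age over all 7 libraries in limma 3.58.1 (R 4.3.3) with a variance trend and no batch term, and p-values were Benjamini-Hochberg adjusted over all peaks, with a call at an adjusted p under 0.01. The procedure was tested on simulated data. Promoter sequences and starts came from RefSeq (GRCm38.p6), in which all 10 genes were found. Reads per peak had a median of 1 to 2 at P4 and P10 and 6 to 33 at P28. Alternatives were another pseudocount, a filter on low values, 3 other scalings, voom on recovered reads, thinning, array weights, a replicate block, other choices of peak and leaving out each library.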

Additional observations from a re-analysis of the deposited data

How the results depend on the processing

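From P4 to P28 the 6 called lead peaks (32.8% of promoter peaks called higher) became 3 with libraries scaled to their signal in peaks (6.98%) and 2 after thinning to the smallest library (4.61%). The count also moved when 1 library was left out, and the share of promoter peaks called moved too. From P4 to P10 the 4 (11.1%) became 1 with scaling to signal in peaks (2.26%), with quantile normalization (2.28%) or with array weights (3.86%), and 0 after thinning (1.21%). They became 2 with the mean of all promoter peaks of a gene (11%) or with the peak over the RefSeq start (12.0% of such peaks, an alternative chosen after seeing the data). Here too the count and the share moved when 1 library was left out. From P10 to P28 the 0 became 0 to 1 without 1 library, and the other alternatives gave 0. For any age the 5 (28.8% of promoter peaks) became 1 with scaling to signal in peaks (10.3%), 0 after thinning (2.76%), 8 with array weights (53.2%) and 3 with the peak over the RefSeq start. This count and its share also moved when 1 library was left out. The 16 called peaks of all 53 (23.1% of all peaks) became 10 with a pseudocount of 0.1 (14.2%), 29 with voom on the recovered reads (41.5%), 5 after thinning (5.18%), 31 with array weights (42.6%), and 7 to 28 without 1 library (7.18% to 39.2%). The median change of 2.04 from P4 to P28 became 2.75 with a pseudocount of 0.1, 1.00 with scaling to signal in peaks, 1.52 with median centring, 1.43 with quantile normalization, 2.68 with voom, 1.66 after thinning, 1.80 with the peak over the RefSeq start, and 1.89 to 2.06 without 1 library. The mean over libraries of the median percentile moved by less than 1 SD between libraries when ranked among all promoter peaks or with a gene's strongest promoter peak. With the peak over the RefSeq start the medians per library were 29.0 and 49.2 at P4 and 60.3 to 72.2 later.

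Changes from P4 to P28 were negative with scaling to signal in peaks in Spata7 (−0.080) and Ift140 (−0.26), and without 1 library they ranged from 0.66 to 1.91 in Cep290 and 0.59 to 1.29 in Ift140. Changes from P4 to P10 were negative with that scaling in Cep290 (−0.58), Ift88 (−0.71), Ift140 (−0.88) and Kif3a (−0.22), with median centring in Ift88 (−0.20) and Ift140 (−0.12), with quantile normalization in Cep290 (−0.14) and Ift140 (−0.56), and with a pseudocount of 0.1 in Ift88 (−0.78). Without 1 library they ranged from −0.21 to 1.04 in Cep290, −0.78 to 0.88 in Ift88, −0.23 to 0.47 in Ift140 and −0.18 to 1.25 in Kif3a. The cause was not tested.

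The deviations of same-numbered libraries of 2 ages had correlations of 0.0229 to 0.0469 where P10 entered. With 2 libraries at P4 and at P10, the deviations within such an age mirror each other, and depth was low. Whether the numbers pair the libraries can therefore not be decided from these correlations. With the replicate number as a block, 4 lead peaks were called from P4 to P28 (18% of promoter peaks), 4 from P4 to P10 (9.16%), 0 from P10 to P28 (0%) and 5 for any age (14.4%). In that fit 11 of the 53 peaks were called from P4 to P28 (14.1% of all peaks), and the median change of the lead peaks was 1.99. The limma filter on low values removed the Ift88 lead peak. Low depth at P4 and P10 limits every fold change given.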
